A study of Mus musculus with 30 samples.

Results

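Distal acetylated regions without RNA polymerase II were examined in N1E115 cells, a mouse neuroblastoma line, by chromatin immunoprecipitation and sequencing. H3K9ac, histone H3 acetylated at lysine 9, gave 104182 merged regions, of which 39931 held a peak in each of the 4 H3K9ac lists. A region was kept when it was called in all 4 lists, was less than 4000 bp wide, lay outside every protein-coding gene and lay more than 2.5 kb from the start or the end of any annotated gene. This left 8474 distal regions. At 6930 of them, at least 1 of 12 polymerase lists held an island, the broad interval that the caller SICER reports. Of these 6930 regions, 742 had an island in exactly 1 of the 12 lists and 181 in all 12. The other 1544 of the 8474 regions overlapped no island in any list and are the subject of what follows. With or without polymerase here means with or without a called island, which is not a measure of polymerase absence. They were chosen by their H3K9ac peaks and their lack of polymerase islands, so both properties are given here as descriptions.

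The cells were labelled NOS1+ in every group and were kept for 3 days at 4% O2 or at 20% O2. With 6 antibodies and 2 libraries of each per O2 level, the series holds 24 immunoprecipitated libraries among its 30 samples, the other 6 being inputs. The antibodies were raised to H3K9ac, CTCF, RAD21, RNA polymerase II (POLR2) and polymerase phosphorylated at serine 5 (POLR2S5) or serine 2 (POLR2S2). Replicates 1 and 2 were sequenced on different flow cells and are called rounds 1 and 2. The labels do not say whether the paired libraries of a level were grown as separate cultures, so a p-value here measures the spread between libraries alone, and that spread may be technical.

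H3K9ac marks the nucleosomes beside active promoters and enhancers. Away from genes it is found at enhancers, which are often transcribed by polymerase, and beside insulator elements. CTCF is a zinc finger protein that binds such elements at a long motif, and RAD21 is a subunit of cohesin, the ring complex that extrudes chromatin loops and halts at bound CTCF. Polymerase phosphorylated at serine 5 is found mostly near the starts of genes, and the serine 2 form in the bodies of genes being transcribed.

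Among 32851 RefSeq windows from 250 bases before to 50 bases after an annotated transcript start (GRCm38.p6, the build mm10), 3 lay inside a distal region without polymerase. They belonged to internal starts of the lncRNA genes Gm33162 and Gm40036, whose outer ends lie farther away. One window of each gene is shown, because these are the 2 distal regions without polymerase that hold an annotated start, and because they differ in CTCF and RAD21. Capitals mark the E-box CANNTG in the first and the hypoxia response core ACGTG in the second.
Gm33162, minus strand, chr3:101517056-101517355: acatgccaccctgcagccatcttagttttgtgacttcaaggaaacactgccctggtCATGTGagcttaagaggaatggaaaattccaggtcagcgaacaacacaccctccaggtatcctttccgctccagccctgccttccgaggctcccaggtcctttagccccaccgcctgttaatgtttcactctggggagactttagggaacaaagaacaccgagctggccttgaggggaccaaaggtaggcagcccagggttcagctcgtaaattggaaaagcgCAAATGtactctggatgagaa
Gm40036, plus strand, chr11:68566658-68566957: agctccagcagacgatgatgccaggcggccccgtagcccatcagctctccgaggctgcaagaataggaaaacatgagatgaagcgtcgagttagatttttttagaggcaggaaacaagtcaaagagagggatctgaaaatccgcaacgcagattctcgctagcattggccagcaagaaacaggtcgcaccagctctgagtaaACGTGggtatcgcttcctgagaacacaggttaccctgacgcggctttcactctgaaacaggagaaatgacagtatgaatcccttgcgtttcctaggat

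The region around the Gm33162 window, chr3:101517037-101517754, lies 54.0 kb from Igsf3, the nearest protein-coding gene, and overlapped no CTCF or RAD21 peak in any list. The region around the Gm40036 window, chr11:68566657-68567125, lies 8.41 kb from Mfsd6l and overlapped both CTCF and RAD21 peaks in all 8 lists. In round 2 its H3K9ac summit lay at base 161 of the printed window at 4% O2 and at base 157 at 20% O2. The CTCF summits lay outside the printed window, 59 bp before its first base at 4% O2 and 66 bp before it at 20% O2. The RAD21 summits lay 70 and 52 bp before that base. The acetylation peak thus stood beside the CTCF and RAD21 summits and not on them. The motifs were searched on both strands. The Gm33162 window held 2 E-box matches and no hypoxia response core, and the Gm40036 window held 1 hypoxia response core and no E-box. Neither window matched the CTCF core GGNGGCAG or the AP-1 motif TGANTCA. The share of all 300-base windows with a match was 72.3% for the E-box, 19.6% for the hypoxia response core, 12.6% for the CTCF core and 7.81% for the AP-1 motif. The E-box and the hypoxia response core can overlap, and such a match would count under both.

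The lists differed in length. For H3K9ac, 79516 peaks (round 1) and 92649 peaks (round 2) were called at 4% O2, against 71857 and 84395 at 20% O2. The RAD21 list of 20% O2 round 1 was the shortest of its antibody, with 26908 peaks against 39012 to 73328 in the other 3. The polymerase lists of the same round and level reached the fewest distal regions: 14.3% for POLR2, 23.7% for POLR2S5 and 4.96% for POLR2S2, against 56.1 to 66.9%, 58.7 to 65.0% and 19.7 to 30.4% in the other 3 lists of each form. The labels give neuroblastoma cells, for which markers of sympathetic neuroblasts were chosen here. Marker genes with an H3K9ac peak within 1 kb of a gene end numbered 18 to 19 of 24 for sympathetic neuroblasts, depending on the list. They numbered 0 to 1 of 9 for endothelium, 3 of 12 for macrophages and microglia, 2 to 3 of 11 for fibroblasts, 3 to 4 of 9 for astrocytes and 3 to 5 of 11 for oligodendrocytes and Schwann cells. Over all protein-coding genes the share was 52.7 to 56.2%.

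Distal regions without polymerase were narrow and remote. Their median merged width was 879 bp, with quartiles of 633 and 1217 bp, against a median of 1279 bp at distal regions with polymerase. The median distance to the nearest end of a protein-coding gene was 50.1 kb, against 23.2 kb. The nearest annotated gene of any kind was an lncRNA for 752 regions, a protein-coding gene for 427 and a pseudogene for 280. Of the 1544 regions, 233, or 15.1%, lay within an lncRNA gene, against 13.3% of the distal regions with polymerase. The nearest island in any of the 12 lists was a median of 16.0 kb away, with quartiles of 5.69 and 47.4 kb. Islands came close in some cases: 24 regions had one within 1 kb and 338 within 5 kb. The shortest gaps were 44 bp, for a region 8.36 kb from Acsf3, and 52 bp, for a region 3.16 kb from Tenm4. Regions 3.16 kb and 1681 kb from the nearest end of a protein-coding gene thus met the same rule.

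The H3K9ac level was low relative to other acetylated regions. Within each library the highest peak score of every region was ranked among the 39931 regions called in all 4 lists, from 0 for the lowest to 100 for the highest. The deposited scores were read from their values as −log10 q-values, and only ranks were compared. The median rank of the 1544 regions at 4% O2 was 19.1 in round 1 and 13.7 in round 2, and at 20% O2 it was 29.0 and 16.5. Distal regions with polymerase had medians of 44.5 and 37.7 at 4% O2 and 49.9 and 38.7 at 20% O2. The 20781 regions within 2.5 kb of an end of any gene had medians of 55.9, 61.1, 54.2 and 62.3 in the same order. In every library the order was the same, with distal regions without polymerase lowest. Against distal regions with polymerase the difference was −23.1 ± 1.99 percentile points (SD, n = 4 libraries); it is a description, with no test, because the same lists chose the regions. Acetylated width went the same way: the peaks of a library covered a median of 470 and 608.5 bp of each region at 4% O2 and 609.5 and 571.5 bp at 20% O2, against 823, 1088, 858 and 981 bp at distal regions with polymerase. That difference was −373 ± 97.6 bp (SD, n = 4 libraries), likewise without a test.

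**Figure D1:**
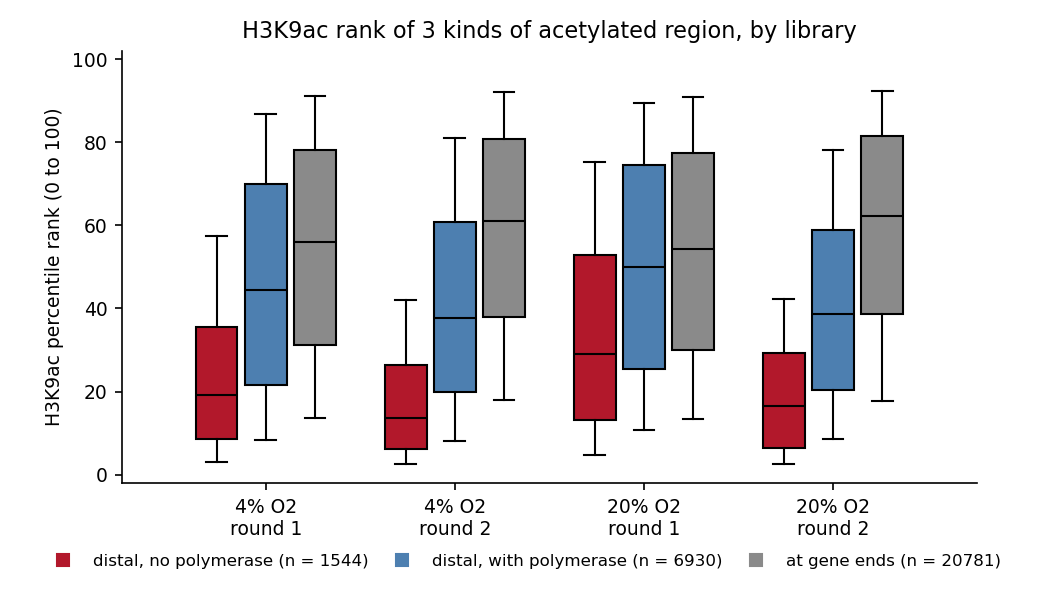
H3K9ac percentile rank (vertical axis, 0 to 100) in each of the 4 libraries for distal regions without polymerase (red), distal regions with polymerase (blue) and regions at gene ends (grey). Boxes span the quartiles with the median as a line, and whiskers run from the 10th to the 90th percentile of regions. The red medians, 13.7 to 29.0, are the lowest of the 3 in every library.

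Width alone was compared as a check chosen after the values were seen. Among regions of 500 to 1000 bp, 728 lacked polymerase and 1909 had it. Their median ranks were 17.0, 11.2, 26.2 and 13.8 without polymerase, against 29.4, 24.8, 37.4 and 24.7 with it, at 4% O2 rounds 1 and 2 and then at 20% O2 rounds 1 and 2. The median without polymerase was lower in all 4 libraries, by a mean of −12.001 percentile points.

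Some regions were strongly acetylated in all 4 libraries without an island. The highest mean rank belonged to chr15:62327315-62330178, which lies 67.1 kb from the lncRNA gene Pvt1 and 337 kb from Myc, a growth-promoting transcription factor gene. Its rank was 93.1 and 92.2 at 4% O2 and 99.8 and 91.7 at 20% O2, and the nearest island was 52.7 kb away. A second region near Myc, chr15:62286112-62288595, ranked 88.5 and 75.1 at 4% O2 and 82.4 and 84.6 at 20% O2. Its nearest island was 11512 bp away. In all 4 libraries both regions ranked far above the medians of distal regions with polymerase, and their values overlapped between the O2 levels. The region 48.2 kb from Has2, a hyaluronan synthase gene, ranked 99.0 and 85.1 at 4% O2 and 98.1 and 82.0 at 20% O2, with its nearest island 144185 bp away. The region 36.1 kb from Poc5, which encodes a centriole protein, ranked 89.1 and 89.3 at 4% O2 and 96.7 and 98.5 at 20% O2, with the 4% O2 values below both 20% O2 values. Its nearest island was closer, at 3001 bp. The region 91.5 kb from Meis1, a homeobox gene, ranked 94.7 and 62.9 against 99.6 and 77.2, so its values overlapped between levels and differed more between rounds. The other 5 of the 10 highest regions had as nearest protein-coding genes Fam78b, Gsdmc, Fbxo8, Zhx2 and Baalc, and 6 of the 10 lay on chromosome 15. The regions whose sequences are shown ranked lower: the one at Gm40036 had 44.5 and 20.9 at 4% O2 and 31.1 and 20.7 at 20% O2, and the one at Gm33162 had 14.8 and 5.22, against 9.72 and 15.3.

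CTCF and RAD21, which the choice of regions did not use, were found at many of these regions. A CTCF peak overlapped 541 and 524 of the 1544 regions at 4% O2 and 506 and 529 at 20% O2, or 35.0, 33.9, 32.8 and 34.3%. At distal regions with polymerase the shares were 41.0, 40.4, 37.5 and 38.7%, and at gene ends 45.3, 43.3, 39.4 and 39.3%. The share was lower without polymerase in 4 of 4 libraries, by −5.39 ± 0.962 percentage points (SD, n = 4 libraries). The exact sign-flip permutation test over libraries gave p = 0.125, the smallest that 4 libraries allow, and 0.5 after Benjamini-Hochberg adjustment over the 4 tests on CTCF and RAD21, so no such comparison could pass 0.05. The difference was −2.49 with peak scores of at least 5 and −3.04 at regions more than 10 kb from a gene end. Among regions of 500 to 1000 bp, the check chosen after the values were seen, it was −6.72. The shares there were 36.5, 36.7, 35.7 and 37.2% without polymerase, against 44.1, 44.2, 41.6 and 43.1% with it. Between the O2 levels the share was 34.5 ± 0.779% at 4% O2 and 33.5 ± 1.05% at 20% O2 (SD, n = 2 each), a difference of 0.97 percentage points that lay within the spread (exact permutation p = 0.667, smallest possible 0.333). Within rounds the difference was 2.27 in round 1 and −0.32 in round 2.

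A RAD21 peak overlapped 690 and 721 regions at 4% O2 and 416 and 828 at 20% O2, or 44.7, 46.7, 26.9 and 53.6%. Distal regions with polymerase had 44.0, 55.8, 24.1 and 59.9%. The sets changed order between rounds: the share without polymerase was the higher one in both round 1 libraries and the lower one in both round 2 libraries, with a mean difference of −2.94 ± 5.66 percentage points (SD, n = 4 libraries, exact sign-flip permutation p = 0.5, adjusted 0.889). Among regions of 500 to 1000 bp the RAD21 share without polymerase was the lower one in all 4 libraries (mean difference −3.76, exact sign-flip permutation p = 0.125). The shares were 44.6, 46.6, 30.8 and 51.2% against 45.8, 54.1, 32.3 and 56.1%. This width check was chosen after the values were seen. Its p-value is the smallest that 4 libraries allow and was not adjusted, as it stands outside the 4 adjusted tests. The 4% O2 mean of 45.7 ± 1.42% and the 20% O2 mean of 40.3 ± 18.9% (SD, n = 2 each) differed by 5.41 percentage points (exact permutation p = 1.0). That difference changed sign with the short RAD21 list of 20% O2 round 1: it was 17.7 in round 1 and −6.93 in round 2, and −7.93 without that library.

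**Figure D2:**
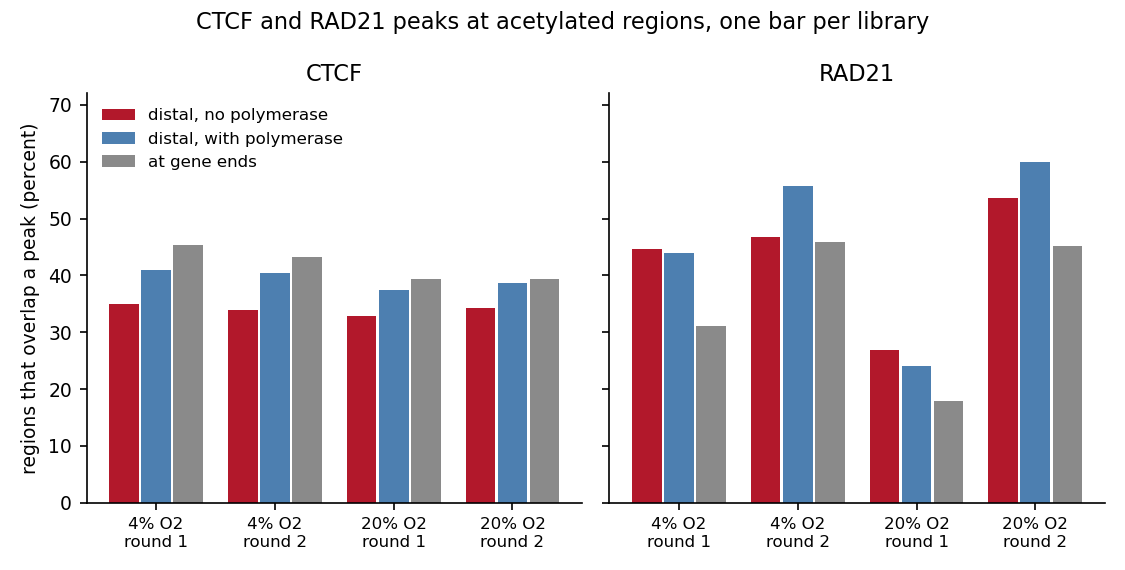
Share of regions that overlap a CTCF peak (left) or a RAD21 peak (right) by at least 1 bp, in percent, with 1 bar per library for distal regions without polymerase (red), with polymerase (blue) and at gene ends (grey). CTCF shares without polymerase stay between 32.8 and 35.0%, while RAD21 shares run from 26.9 to 53.6%.

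The 1544 regions fell into unlike classes. CTCF and RAD21 were both called in all 8 lists at 403 regions, or 26.1%, against 23.3% of distal regions with polymerase and 18.5% of all acetylated regions. Neither was called in any list at 554, or 35.9%, against 28.4 and 32.1%. RAD21 was called in 1 to 4 lists without any CTCF peak at 393, or 25.5%, against 24.9 and 18.9%. These differences were not tested. CTCF was called in all 4 lists with RAD21 in fewer at 60, and CTCF in 1 to 3 lists at 134. The 403 regions with both were the narrowest, with a median width of 615 bp against 1066 bp at the 393 with RAD21 alone and 911.5 bp at the 554 with neither. Their median distance to a protein-coding gene end was 26.1 kb, against 92.7 kb and 58.6 kb. The median H3K9ac rank was 23.4, 17.6, 39.6 and 21.4 at the 403 regions and 15.5, 10.05, 23.9 and 12.6 at the 554 regions with neither, at 4% O2 rounds 1 and 2 and then 20% O2 rounds 1 and 2. In each library the median was lower at the regions with neither protein than at the 403 with both; this was not tested.

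Where CTCF was present, RAD21 usually was too. Of the regions with a CTCF peak in a library, 86.3 and 93.7% at 4% O2 and 80.4 and 94.9% at 20% O2 also had a RAD21 peak in the matching library. The shares were 78.8, 90.9, 63.1 and 93.4% at distal regions with polymerase and 59.0, 78.1, 43.7 and 81.6% at gene ends. The order of the 3 sets was the same in every library; this difference was not tested. RAD21 without CTCF depended on the list: 223 and 230 regions at 4% O2 and 9 and 326 at 20% O2. Only 4 regions had RAD21 in all 4 lists and CTCF in none. Of 85 regions with RAD21 in 3 lists and no CTCF, 84 lacked it in the short list of 20% O2 round 1.

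At most regions with CTCF the acetylation lay beside the CTCF summit and not over it. Summits, the points of highest enrichment in a peak, were deposited for round 2 only. Of the regions with a CTCF peak, 397 of 524 at 4% O2 and 398 of 529 at 20% O2, or 75.8 and 75.2%, had the CTCF summit outside the acetylated region, a median of 57 and 55 bp beyond its edge. At distal regions with polymerase the shares were 60.7 and 64.2%, and at gene ends 49.6 and 54.4%. Beyond the summit another acetylated region followed within 1000 bp in 217 and 221 cases, or 54.7 and 55.5%. This was less frequent than at distal regions with polymerase, at 78.2 and 79.0%, and at gene ends, at 84.3 and 84.1%. The median distance between the CTCF and the H3K9ac summit was 238 bp at 4% O2 and 234 bp at 20% O2. It was longer at distal regions with polymerase, at 314 and 318 bp, and at gene ends, at 377 and 368.5 bp. The 2 summits lay within 100 bp of each other at 20 and 23 regions, or 3.82 and 4.35%. The shares were 3.57 and 3.39% at distal regions with polymerase and 6.03 and 4.88% at gene ends. Median merged widths of the 3 sets were 879, 1279 and 1433 bp, and summit positions were not compared at equal width. RAD21 summits lay outside in 431 of 721 and 496 of 828 regions, or 59.8 and 59.9%. CTCF and RAD21 summits lay close together, with medians of 18 and 13 bp between them. Of the pairs, 399 of 491 and 442 of 502, or 81.3 and 88.0%, were within 50 bp. The other sets were similar, with medians of 20 and 16 bp at distal regions with polymerase and 22 and 18 bp at gene ends. Their shares within 50 bp were 75.9 and 80.1%, and 71.1 and 78.3%.

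**Figure D3:**
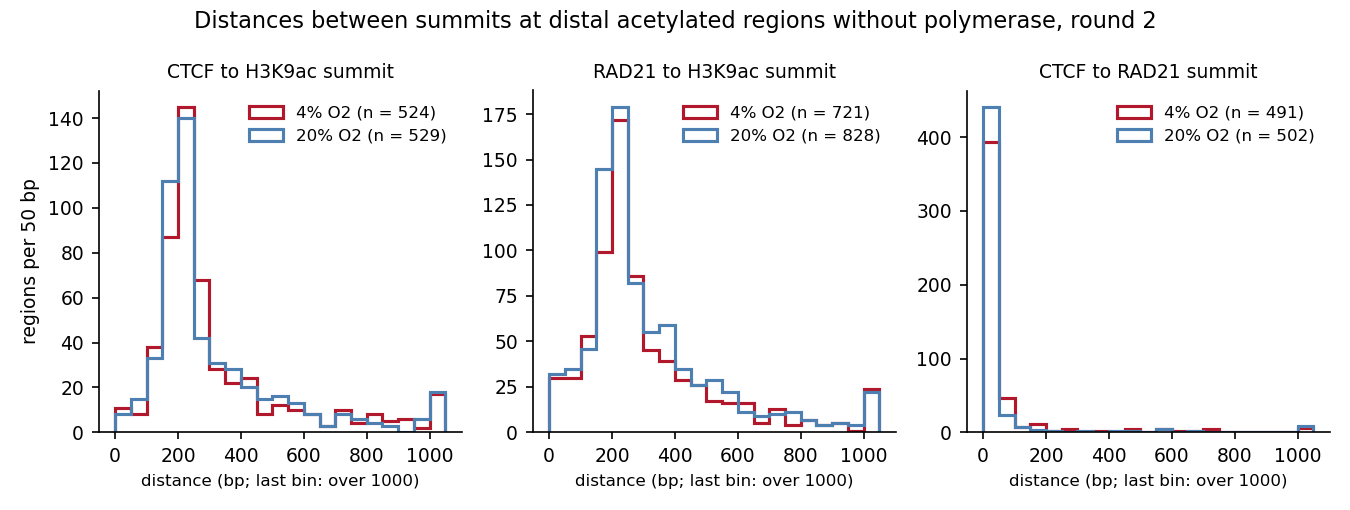
Distances in bp between the summits of CTCF and H3K9ac (left), RAD21 and H3K9ac (middle) and CTCF and RAD21 (right) at distal regions without polymerase, as counts of regions per 50 bp in the round 2 libraries at 4% O2 (red) and 20% O2 (blue). CTCF to H3K9ac distances have medians of 238 and 234 bp, while CTCF to RAD21 distances have medians of 18 and 13 bp.

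Regions could therefore share a CTCF site. The 463 regions with CTCF in all 4 lists touched 530 merged CTCF sites, and 80 of them shared a site with another of the 463. Counting every acetylated region, 238 shared their CTCF site. The strongest CTCF peaks show the arrangement. The regions chr2:157634116-157635789 and chr2:157635912-157636663, both nearest to Blcap, lie on either side of 1 CTCF peak, with a CTCF rank of 93.6 and 99.7 at 4% O2 and 98.4 and 99.7 at 20% O2 among 12970 acetylated regions with CTCF in all 4 lists. The regions chr2:21260878-21261741 and chr2:21261890-21262752, nearest to Thnsl1, likewise share 1 peak, with a CTCF rank of 91.8, 96.6, 96.2 and 96.0. These pairs are not independent regions. The region with the highest mean CTCF rank, chr10:74921137-74921695 near Rsph14, had CTCF ranks of 98.9, 99.6, 99.7 and 99.96, but H3K9ac ranks of 5.19 and 58.9 at 4% O2 and 1.29 and 46.6 at 20% O2. Its acetylation rank was low in both round 1 libraries and intermediate in both round 2 libraries.

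Between the O2 levels the median H3K9ac difference had the same sign in both rounds but differed in size. The H3K9ac values are given without a test because the same lists chose the regions. A region was counted as higher or lower at 4% O2 when both 4% O2 ranks lay on that side of both 20% O2 ranks and the difference was at least 10 percentile points in each round. By this measure 38 regions, or 2.46%, were higher, against 6.49% of all 39931 regions. A total of 143, or 9.26%, were lower, against 5.85% of all regions. Among the lowest 25% of all regions by mean rank the shares were 6.15% higher and 5.84% lower, and among distal regions with polymerase 6.85 and 7.29%. Without the step of 10 points, ranks did not overlap between levels at 122 of the 1544 regions that were higher and 317 that were lower. Among all 39931 regions the counts were 5550 (13.9%) and 5215 (13.1%).

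The excess of lower ranks moved with 1 library, 20% O2 round 1, which ranked these regions above the other 3 libraries. The median difference, 4% minus 20% O2, was −7.25 percentile points in round 1 and −1.49 in round 2. The median over regions of the difference between the level means was −4.49 with all 4 libraries and 1.38 without 20% O2 round 1. With that library left out, 186 regions (12.05%) were higher and 237 (15.3%) lower, against 16.2 and 15.6% of all regions. The shares grow because fewer libraries have to separate. Without 20% O2 round 2, 130 (8.42%) were higher and 643 (41.6%) lower, against 23.1 and 22.2%. Without 4% O2 round 1 the counts were 140 (9.07%) and 335 (21.7%), against 15.9 and 16.0%, and without 4% O2 round 2 they were 192 (12.4%) and 359 (23.3%), against 20.2 and 19.9%. The polymerase lists of 20% O2 round 1, which helped choose the regions, were also the least extensive. With only the 6 polymerase lists of round 2, a choice made after the values were seen, 1967 regions remained, of which 54 (2.75%) were higher and 166 (8.44%) lower. The part of that library in the difference beyond these values was not tested.

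**Figure D4:**
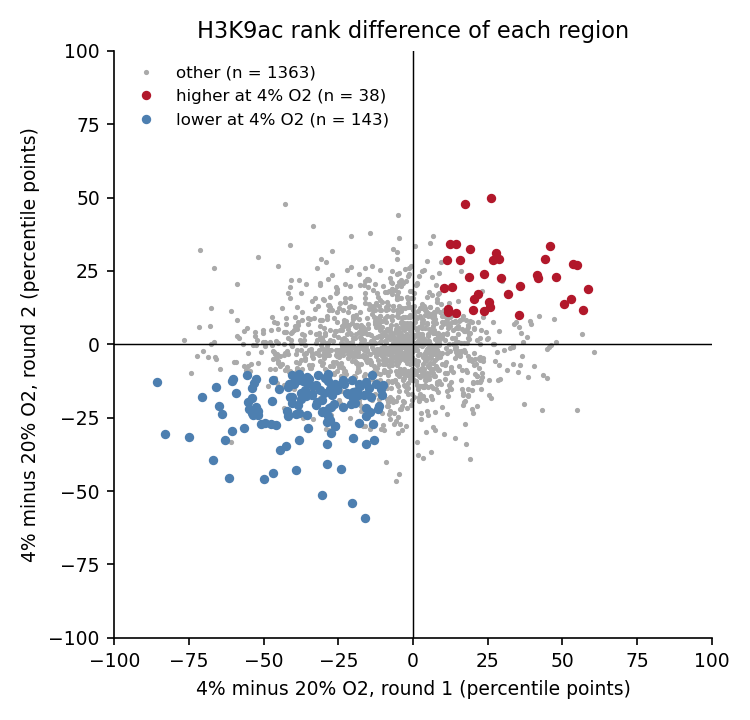
Difference in H3K9ac percentile rank, 4% minus 20% O2, in round 1 (horizontal axis) and round 2 (vertical axis), for each of the 1544 regions. Red points are the 38 regions higher at 4% O2, blue points the 143 lower ones and grey points the other 1363; the cloud reaches farther to the left, in round 1, than downward, in round 2.

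The regions with the largest differences between O2 levels were picked by those differences, so their values are a description. Near Cartpt, which encodes a neuropeptide precursor, chr13:99793189-99795493 ranked 73.1 and 63.0 at 4% O2, against 27.1 and 29.7 at 20% O2. Near Mtss1, chr15:59197975-59198959 ranked 83.6 and 76.3, against 28.6 and 49.2. Near Tnr, which encodes the neural matrix protein tenascin R, chr1:159516897-159518550 ranked 38.4 and 64.7, against 12.4 and 14.9. The other regions with the largest positive differences in both rounds lay nearest to Ugp2, Shq1, Asap1, Col22a1 and Prep.

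Other regions ranked far lower at 4% O2 than at 20% O2. Near Ghr, the growth hormone receptor gene, chr15:3618542-3619335 ranked 3.56 and 3.84 at 4% O2, against 53.5 and 49.8 at 20% O2. Near Otx2, a homeobox gene, chr14:48615232-48616760 ranked 4.71 and 4.18, against 44.0 and 47.1. Near Dnajb9, which encodes a chaperone of the endoplasmic reticulum, chr12:44180680-44181469 ranked 35.2 and 16.4, against 96.7 and 62.0. At the Ghr region CTCF was called in all 4 lists, and at the Otx2 region in none. Near Gjd2, which encodes the neuronal gap junction protein connexin 36, chr2:113966600-113967252 ranked 32.4 and 7.26, against 77.0 and 43.2, while its CTCF rank was 60.0 and 64.8, against 64.7 and 67.9. The remaining regions of this kind lay nearest to Trps1, Zfp622, Tmtc1 and Fbxl7.

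CTCF and RAD21 peaks specific to an O2 level were few. A CTCF peak in both 4% O2 lists and neither 20% O2 list was found at 7 regions, or 0.453%, against 1.23% of all acetylated regions, and the opposite at 3 regions, against 0.11%. For RAD21 the counts were 14 regions, against 1.06%, and 1 region, against 0.0576%. At the 403 regions with both proteins in all 8 lists the median CTCF rank was 62.5 and 56.8 at 4% O2 and 67.4 and 65.5 at 20% O2. None of them was higher and 20, or 4.96%, were lower at 4% O2 by the measure used for H3K9ac. Of the 12970 regions ranked, 1.26 and 1.17% were. Their median RAD21 rank was 60.3 and 49.4 at 4% O2 and 68.1 and 58.8 at 20% O2. For RAD21, 4 of the 403 (0.993%) were higher and 34 (8.44%) lower, against 4.1% each way of the 7612 regions ranked. Both proteins thus ranked lower at 4% O2 in each round at the 403 regions, and CTCF also did at distal regions with polymerase, by less. The regions were chosen by calls in the same lists, and no test was made.

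The nearest protein-coding gene was taken as a position and not as a target. The 1544 regions had 989 nearest genes, which is 4.52% of 21887 protein-coding genes, and 26 of these genes had 5 or more regions. Among genes that mark sympathetic neuroblasts, 7 of 24 were nearest to at least 1 region, and they were Hand2, Gata3, Isl1, Mycn, Sox11, Sox4 and Chga, with 20 regions in all. Of the same list, 19 of 24 were nearest to a distal region with polymerase, against 14.6% of all genes. Hand2, Gata3 and Isl1 encode transcription factors of sympathetic neuron development, and Chga encodes a protein of secretory granules. Of neuronal cytoskeleton and synapse genes, 5 of 24 were nearest to a region: Map1b, Nefl, Nefm, Gap43 and Syt1. The counts were 4 of 25 for axon guidance (Slit2, Sema6d, Nrp1 and Nrp2), 4 of 24 for ion channels (Kcnh2, Kcnma1, Scn2a and Scn8a), 3 of 20 for AP-1 and immediate early genes (Jun, Nr4a3 and Myc) and 2 of 17 for nitric oxide signalling (Gucy1a1, a subunit of the nitric oxide receptor, and Ddah1).

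For genes of the response to low oxygen the share was near that of all genes. Of 36 targets of hypoxia-inducible factor and genes of glycolysis, 2, or 5.56%, were nearest to a region, against 4.52% of all protein-coding genes. They were Pfkp, a phosphofructokinase gene, and Vegfa, an angiogenic growth factor gene, with 3 regions in all. None of the 3 was counted as higher or lower at 4% O2. The Vegfa region chr17:45916853-45917591 ranked 41.5 and 3.39 at 4% O2 and 20.2 and 14.1 at 20% O2, so its values overlapped between levels. No region was nearest to any of 24 ribosomal protein genes. Among markers of other cell types the counts were 1 of 9 for endothelium, 1 of 12 for macrophages and microglia, 2 of 11 for fibroblasts, 1 of 9 for astrocytes and 1 of 11 for oligodendrocytes and Schwann cells. These counts describe position only.

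A POLR2S5 island lay at an end of the nearest gene for 63.8 and 65.5% of the regions at 4% O2 and for 54.0 and 68.4% at 20% O2. At distal regions with polymerase the shares were 75.6, 76.6, 67.3 and 77.8%, where an island over the region may itself reach the gene. Over all protein-coding genes they were 54.6, 56.0, 49.0 and 57.5%. The difference from distal regions with polymerase was −11.4 ± 1.604 percentage points (SD, n = 4 libraries) and −7.60 at regions more than 10 kb from a gene end. It was not tested, since the POLR2S5 lists helped choose both sets.

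The regions were unevenly spread. Chromosome 15 held 142 of them, or 9.20%, against 4.42% of distal regions with polymerase and 4.60% of all regions called in 4 lists. Chromosome 13 held 7.38%, against 5.43% of distal regions with polymerase, and chromosome 11 held 4.34%, against 7.47%. The chromosome 15 regions were wider than the whole set, with a median of 1181 bp, and their median H3K9ac ranks were higher, at 31.2, 24.7, 45.3 and 28.4 in the same library order. RAD21 was called in at least 1 list at 72.5% of them and CTCF in all 4 lists at 22.5%. On the other chromosomes with regions these shares ran from 47.1 to 73.3% and from 15.8 to 45.0%. Of the 142, 7 were higher and 20 lower at 4% O2 by the H3K9ac measure. Outside chromosome 15 the counts were 31 and 123. Over all 1544 regions the shares were 2.46 and 9.26%, against 6.49 and 5.85% of the 39931 regions called in 4 lists. The difference between chromosome 15 and the rest was not tested.

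**Figure D5:**
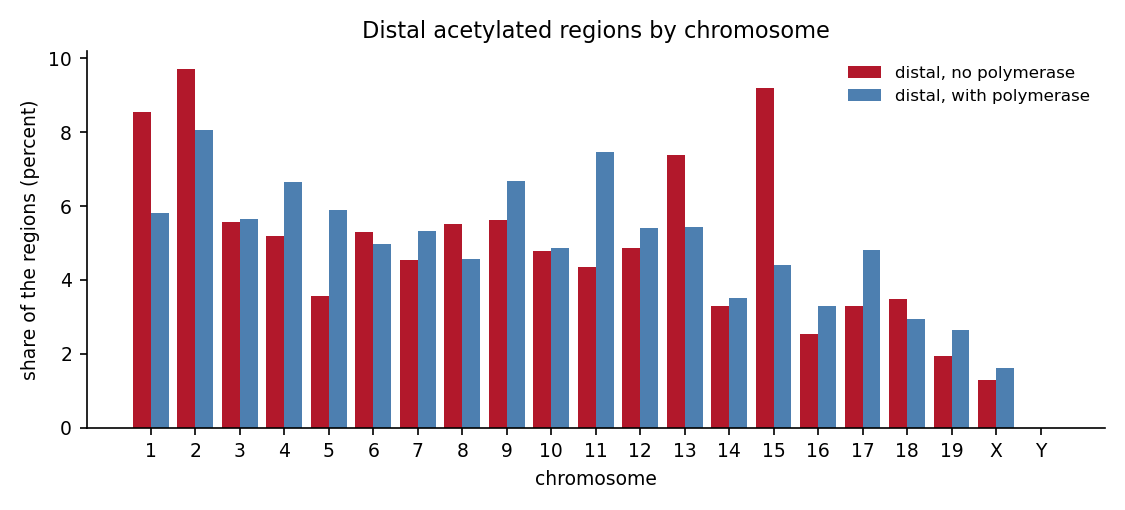
Share of the 1544 distal regions without polymerase (red) and of the 6930 distal regions with polymerase (blue) on each chromosome, in percent. Chromosome 15 holds 9.20% of the red set and 4.42% of the blue set.

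Within chromosomes, some stretches held many regions. Of 760 windows of 1 Mb with at least 1 region, 401 had exactly 1, while 49 had 5 or more and held 331 regions together. The windows with the most, 13 each, were both on chromosome 15. One lies between 26 and 27 Mb beside Fbxl7, Marchf11 and Zfp622, and its regions had median H3K9ac ranks of 39.7 and 28.8 at 4% O2 and 90.8 and 54.7 at 20% O2. The other lies between 62 and 63 Mb beside Myc and Gsdmc, and its medians were 31.7 and 28.7, against 40.8 and 38.7. In the window beside Myc, RAD21 was called in at least 1 list at 12 of 13 regions, while none had CTCF and RAD21 in all 8 lists. Zfp608 was the nearest gene of 12 regions, Gsdmc and Myc of 11 each, Myo16 of 10 and Zeb2, a zinc finger repressor gene, of 7. At the 12 regions nearest to Zfp608, RAD21 was called in at least 1 list at 9 and CTCF in all 4 lists at none. The same counts were 7 and 0 of 10 at Myo16 and 4 and 0 of 7 at Zeb2, but 11 and 4 of 11 at Gsdmc. Zfp608 lies on chromosome 18, Myo16 on 8, Zeb2 on 2, and Gsdmc and Myc on 15. Of all distal regions without polymerase on these chromosomes, 59.3, 69.4, 68.7 and 72.5% had RAD21 in at least 1 list. CTCF was called in all 4 lists at 27.8, 28.2, 37.3 and 22.5% of them. The counts at single genes were not tested against these shares.

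At the limits of the rule, single regions gave the following ranks. The 2 widest regions inside the limit, of 3751 and 3609 bp, ranked 22.1, 48.7, 55.9 and 52.8 (near Myo16) and 54.6, 41.4, 95.0 and 61.5 (near Xkr9). The next wider region, of 4502 bp near Rtl6, ranked 38.8, 34.8, 31.7 and 28.8. Just inside the distance limit, a region 2505 bp from Dok2 ranked 10.3, 24.1, 40.8 and 21.9. Just outside it, a region 2496 bp from Ccl26 ranked 64.2, 1.53, 19.9 and 13.0. In all of these the order is 4% O2 rounds 1 and 2, then 20% O2 rounds 1 and 2.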

How the data were processed

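Of the 30 samples, the 24 immunoprecipitated libraries were used. Reads were aligned to mm10; per the submitters' processing notes the tools were BWA, Picard, SICER and MACS2, with versions and settings not given in the sources used here. The authors deposited MACS2 peaks for H3K9ac, CTCF and RAD21, whose score was read from its values as a −log10 q-value, and SICER islands for the polymerase forms, whose deposited score was read as a count of reads per island. Peaks were called per library, per the file headers. The list of replicate 2 was identified by scores equal to those under its own label. Library depth is not known from these sources, so no counting interval or floor was computed. No per-sample column was left unmatched.

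Peaks on chromosomes 1 to 19, X and Y were merged at an overlap of at least 1 bp; genes came from RefSeq for GRCm38.p6, with 49943 genes of all kinds and 21887 protein-coding genes. Both ends of every gene counted as gene ends, since the table gives no strand. Shares were compared over libraries with exact permutation tests, adjusted over the 4 tests on CTCF and RAD21. Planned tests of H3K9ac rank, H3K9ac width and POLR2S5 at the nearest gene are given as descriptions, since the rule used those lists. Python 3.11.15, numpy 2.4.6 and pandas 2.3.3 were used, and the interval code was checked on simulated regions and against bedtools. Regions and gene lists were chosen with earlier results of these data known. Regions were named by fixed rank rules (10 highest in H3K9ac, 8 in each direction between O2 levels, 6 highest in CTCF, those nearest to listed genes and those at the limits). Replicate numbers mark a sequencing round: deviations of same-numbered H3K9ac libraries from their level means correlated at 0.518 over 39931 regions, which are not independent. Inputs were not analysed here.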

Additional observations from a re-analysis of the deposited data

How the results depend on the processing

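Across the alternatives tried, 103 of the values kept their direction and, for counts, stayed within 1.5 times; 15 moved and 3 reversed. Keeping the direction did not mean keeping the size: against distal regions with polymerase the CTCF difference ran from −2.49 percentage points (scores of at least 5) to −7.66 (no island within 5 kb), RAD21 stood at −1.80 when a peak had to cover 50% of the shorter interval, and the H3K9ac rank difference stood at −12.001 among regions of 500 to 1000 bp. CTCF between O2 levels stood at 0.285 with that overlap and 0.516 at scores of at least 5. The number of regions was 1029 at more than 10 kb from a gene end and 2713 when 3 of 4 H3K9ac lists sufficed. Regions higher at 4% O2 numbered 23 with peak scores of at least 5, 25 beyond 10 kb and 70 with 1 island allowed, and lower ones 92 beyond 10 kb; fewer or more regions entered each. The RAD21 difference between distal regions without and with polymerase turned to 0.682 percentage points at scores of at least 5 (exact permutation p = 0.875); the cause was not tested. Leaving out each replicate in turn, the RAD21 difference between O2 levels ranged from −7.93 to 18.8 percentage points, the H3K9ac rank difference from −10.6 to 1.38 percentile points, the count of higher regions from 130 to 192 and that of lower regions from 237 to 643; the lone library of a level then had no spread of its own. The negative RAD21 value and the positive rank value both came without 20% O2 round 1. With the replicate number as a block, differences within rounds averaged 0.97 percentage points for CTCF and 5.41 for RAD21, as without it, and exact sign-flip p-values were 1.0, where 2 rounds allow nothing under 0.5; no call changed. CTCF ranges were 0.227 to 1.72 percentage points between O2 levels and −5.70 to −5.04 against distal regions with polymerase. Summits of round 1 and library depths were not used here, so small differences cannot be separated from depth.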
